A study of Mus musculus with 20 samples.

Results

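The 5 mouse Serpina1 paralogs, Serpina1a to Serpina1e, were followed across 20 liver libraries. They were chosen as the table rows whose gene symbol is one of these 5 names, which gives 5 of the 37681 genes listed in each table, and all 5 were among the 15578 genes tested. The livers came from 10 male C57/BL6 mice (C57/B6J in the growth protocol) aged 12 weeks, 5 given IL-1β at 20 µg/kg and 5 given saline (untreated), with tissue taken 4 hours later. The labels name no transgene or deletion in either group. RNA of each liver was sequenced on an Illumina HiSeq instrument and again on an Ion Torrent Proton, and each set of reads was aligned in 3 ways, by GSNAP, by STAR and by STAR followed by Bowtie2 (STAR + Bowtie2), so that 6 tables hold the same 10 mice. The untreated mice were numbered UNT_9574, UNT_9575, UNT_9576, UNT_9580 and UNT_9584 and the treated mice ILB_9577, ILB_9578, ILB_9579, ILB_9582 and ILB_9583. They were separate animals, studied at 1 dose and 1 time, so the errors below are spreads between mice.

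Alpha-1-antitrypsin is a serine protease inhibitor of the serpin family that hepatocytes secrete into plasma, where it inhibits neutrophil elastase and related proteases. A serpin presents an exposed reactive-centre loop as bait, and the protease that cuts it becomes trapped. The human gene is a single copy and its product is a positive acute phase protein, whereas the mouse carries a tandem family whose members are known to differ in this loop. IL-1β is an early cytokine of inflammation, to which the liver responds.

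All 5 genes lie on the minus strand of chromosome 12 in mm9, within one cluster of serpins. Serpina1b is at chr12:104966366-104976368, Serpina1d at chr12:105001804-105011802, Serpina1a at chr12:105091799-105104137, Serpina1c at chr12:105133136-105143097 and Serpina1e at chr12:105185141-105197185. Each has a coding length of 1242 bases in 4 coding exons. Between pairs of paralogs the coding sequences were 96.3% to 98.5% identical, and Serpina1a and Serpina1c were the closest pair, with 19 differences. At 86 of the 1242 positions at least 1 of the 5 genes differed from the others. Only 18 of these lay in the 628 bases of the first coding exon, against 24 in the 192 coding bases of the fourth.

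The 60 coding bases with the most differences (positions 1101 to 1160, in the fourth coding exon) held 18 variable positions, against a mean of 4.15 per 60 bases. This stretch encodes the reactive-centre loop and is the clearest sequence by which a read can be told to come from one paralog. It is given here 5′ to 3′ on the minus strand of mm9, with the positions at which the 5 genes vary in capitals.
Serpina1a, chr12:105091967-105092026: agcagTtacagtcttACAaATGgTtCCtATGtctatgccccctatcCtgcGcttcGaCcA
Serpina1b, chr12:104966534-104966593: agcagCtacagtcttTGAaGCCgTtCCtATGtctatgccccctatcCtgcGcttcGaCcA
Serpina1c, chr12:105133304-105133363: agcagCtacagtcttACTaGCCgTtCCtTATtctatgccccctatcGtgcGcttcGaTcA
Serpina1d, chr12:105001972-105002031: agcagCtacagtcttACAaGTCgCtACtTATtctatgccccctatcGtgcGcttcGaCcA
Serpina1e, chr12:105185310-105185369: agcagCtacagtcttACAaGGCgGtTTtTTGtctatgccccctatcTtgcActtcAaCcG
The codon at coding positions 1129 to 1131, which aligns with the reactive-site residue of the human protein, is ATG in Serpina1a and Serpina1b, TAT in Serpina1c and Serpina1d, and TTG in Serpina1e.

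Outside such stretches a read cannot always be placed. Of all 125-base windows of the coding sequence, 55.8% of those of Serpina1a and of Serpina1c were identical to a window of another paralog, 25.8% of those of Serpina1b, 25.0% of those of Serpina1d and 14.1% of those of Serpina1e. With 250-base windows the shares were 48.2% for Serpina1a and Serpina1c, 16.5% for Serpina1b, 15.2% for Serpina1d and 0% for Serpina1e. Ion Torrent reads vary in length, and shorter windows were shared more. With 50-base windows the shares were 74.4% for Serpina1a, 74.6% for Serpina1c, 44.8% for Serpina1b, 51.1% for Serpina1d and 39.0% for Serpina1e. When windows found in another transcript or elsewhere in the cluster were also counted, they were 82.2%, 74.6%, 47.2%, 54.4% and 39.0% in that order. Counts of single paralogs are therefore uncertain to the extent that each aligner and the counting split or dropped such reads, and least so for Serpina1e. How the counting treated reads with several placements is not given in the sources used here.

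The 5 promoters shared a long stretch. In RefSeq (GRCm38.p6), the windows from 250 bases before to 50 after the start site of each gene had a longest common run of 59 bases, which occurred, on either strand, in 5 of 32851 promoters (0.0152%), the 5 paralogs. Its presence in these 5 was fixed in advance, since the run was taken from them. This run and the 40 bases after it are given below, because the mean of each of the 5 genes was lower after IL-1β, 5′ to 3′ on the minus strand with the 7 positions at which the genes vary in capitals.
Serpina1a, chr12:103863581-103863679: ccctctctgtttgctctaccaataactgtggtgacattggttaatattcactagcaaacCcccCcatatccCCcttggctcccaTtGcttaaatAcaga
Serpina1b, chr12:103738156-103738254: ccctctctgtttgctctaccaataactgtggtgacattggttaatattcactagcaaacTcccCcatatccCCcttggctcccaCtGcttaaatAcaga
Serpina1c, chr12:103904918-103905016: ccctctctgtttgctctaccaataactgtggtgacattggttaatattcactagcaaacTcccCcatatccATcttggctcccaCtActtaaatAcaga
Serpina1d, chr12:103773590-103773688: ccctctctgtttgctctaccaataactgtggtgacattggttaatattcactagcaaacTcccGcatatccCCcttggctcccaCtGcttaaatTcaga
Serpina1e, chr12:103956916-103957014: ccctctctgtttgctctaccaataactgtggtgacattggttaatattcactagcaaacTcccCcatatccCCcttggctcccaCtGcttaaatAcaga
The stretches of Serpina1b and Serpina1e were identical, and no pair differed at more than 5 of the 99 bases. Searched on both strands of the same windows, the STAT palindrome TTCNNNGAA and the C/EBP palindrome TTGCGCAA were found in 0 of the 5, and in 8.30% and 0.183% of all promoters.

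The libraries held 10568530 to 16439683 reads each, and a single paralog had 12180 to 254567 of them, so counting error was small beside the spread between mice. Totals within a table were near each other because the authors had re-sampled them. TMM factors, which correct for a few genes taking a larger part of a library, ran from 0.920 to 1.10 and averaged 1.04 to 1.05 in the untreated and 0.957 to 0.967 in the treated libraries. All 5 hepatocyte markers listed were present in every table, as the label liver says. The libraries of mouse UNT_9584 stood apart: the deviations of its Ion Torrent and Illumina libraries from the treatment mean correlated at 0.216 with GSNAP, against 0.549 to 0.705 for the other 9 mice. It was the one mouse with a higher correlation to another mouse (0.291) than to itself, and which of its libraries departs was not tested. Leaving that mouse out changed no Ion Torrent call of a paralog.

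In untreated liver Serpina1e had the most counted reads per exonic kilobase of the 5 paralogs in all 6 tables. It also had the fewest shared 125-base windows (14.1%), and Serpina1a and Serpina1c the most (55.8%). The part of such windows in the levels below was not tested. With Illumina and GSNAP the untreated means were 7338 RPKM (RPM per exonic kilobase) for Serpina1e, 3116 for Serpina1c, 3100 for Serpina1b, 1955 for Serpina1d and 801 for Serpina1a. Serpina1c and Serpina1b did not separate, since Serpina1c was the higher in 3 of 5 untreated libraries, while the untreated ranges of the other neighbours in this order did not overlap. With Ion Torrent and GSNAP the order was Serpina1e (6728), Serpina1b (3788), Serpina1d (2454), Serpina1c (2209) and Serpina1a (959), and there Serpina1d and Serpina1c had overlapping ranges. Serpina1a was the lowest of the 5 per kilobase in every table. It also had the fewest raw reads in each, so the order at this end was the same before division by length (2264 exonic bases for Serpina1a, 1361 to 1617 for the others).

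IL-1β was followed by lower levels of the family. The summed reads of the 5 genes with Illumina and GSNAP were 26361, 24068, 23671, 28757 and 21981 RPM (reads in a library scaled to 1000000) in untreated mice UNT_9574, UNT_9575, UNT_9576, UNT_9580 and UNT_9584, and 21061, 15798, 18959, 15815 and 20362 RPM in treated mice ILB_9577, ILB_9578, ILB_9579, ILB_9582 and ILB_9583. Every treated library was below every untreated one, and the means were 24967 ± 2632 untreated and 18399 ± 2485 treated (SD, n = 5 each), a difference of -26.3%. In all tables the change in RPM was -26.5% to -23.4% and the groups did not overlap in any. With TMM library sizes it was -20.4% to -18.0%, and the groups overlapped with Ion Torrent in each of 3 tables, where treated mouse ILB_9583 lay above the lowest untreated mouse. A sum over the members was given no test. In whole tissue, fewer hepatocytes and less of this RNA per hepatocyte cannot be told apart.

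Serpina1a, Serpina1b and Serpina1d fell in all 6 tables, with changes of -25.9% to -22.8% with Illumina and -22.4% to -18.1% with Ion Torrent. With Illumina, 3 to 4 of the 5 paralogs were called lower in each table at an adjusted p below 0.05 (edgeR's quasi-likelihood test, Benjamini-Hochberg over 15578 genes), and with Ion Torrent 3 of 5 in each. Among all genes tested, 23.9%, 22.9% and 24.4% were called lower with Illumina (GSNAP, STAR and STAR + Bowtie2) and 23.9%, 21.8% and 24.0% with Ion Torrent. After TMM, treated and untreated libraries did not overlap for 3 paralogs in each Illumina table and for 1 in each Ion Torrent table. The same held downward for 17.0%, 16.2% and 17.4% of all genes with Illumina and 17.0%, 15.6% and 17.2% with Ion Torrent. By library totals without TMM, a scaling added after the data were seen, the counts were 4 paralogs in each Illumina table and 3 in each Ion Torrent table, against 20.8%, 20.1% and 20.4% of all genes with Illumina and 21.1%, 19.6% and 20.7% with Ion Torrent.

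Serpina1d carries TAT at the reactive-site codon. Its levels with Illumina and GSNAP, scaled here and for the other single paralogs to the TMM library size, were 2294, 2542, 2534, 2830 and 2896 RPM in untreated mice UNT_9574, UNT_9575, UNT_9576, UNT_9580 and UNT_9584 and 2018, 1714, 2048, 1901 and 2133 in treated mice ILB_9577, ILB_9578, ILB_9579, ILB_9582 and ILB_9583. All treated mice lay below the lowest untreated mouse. The log2 fold change was -0.42 ± 0.11 (SE), or -25.1%, with an adjusted p of 0.00468. With Ion Torrent and GSNAP it was -0.37 ± 0.10 with an adjusted p of 0.00932, and 4 of 5 treated mice were below the lowest untreated one.

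Serpina1a, the paralog with the fewest reads, gave 1618, 1657, 1712, 1997 and 1717 RPM in the same untreated mice and 1395, 1130, 1327, 1198 and 1493 in the treated ones with Illumina and GSNAP. The groups did not overlap, and untreated mouse UNT_9580 was the highest. The log2 fold change was -0.41 ± 0.11, with an adjusted p of 0.00567. With Ion Torrent and GSNAP it was smaller, -0.31 ± 0.11 with an adjusted p of 0.0253, and with Ion Torrent and STAR + Bowtie2 it was -0.29 ± 0.11 with an adjusted p of 0.0430. These Ion Torrent calls rested on single mice: leaving out any 1 of 5 (GSNAP), 6 (STAR) or 7 (STAR + Bowtie2) of the 10 mice took the adjusted p above 0.05, up to 0.142 for STAR without untreated mouse UNT_9580. Mice UNT_9580, ILB_9577, ILB_9578, ILB_9579 and ILB_9582 were among them with each aligner, UNT_9576 with STAR and STAR + Bowtie2, and UNT_9575 with STAR + Bowtie2.

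Serpina1b, like Serpina1a a carrier of ATG at the reactive-site codon, gave 3684, 4096, 4130, 4434 and 4399 RPM in the untreated and 3300, 2829, 3311, 3001 and 3465 in the treated mice with Illumina and GSNAP. After TMM it was the only paralog whose groups did not overlap in any of the 6 tables, whereas by library totals this also held for Serpina1a and Serpina1d. Its log2 fold changes ran from -0.39 ± 0.10 (Illumina STAR + Bowtie2, adjusted p = 0.00562) to -0.34 ± 0.11 (Ion Torrent STAR + Bowtie2, adjusted p = 0.0168). With Ion Torrent and STAR, leaving out untreated mouse UNT_9580 moved the adjusted p of Serpina1b from 0.0146 to 0.0578 and that of Serpina1d from 0.0162 to 0.0721. Without treated mouse ILB_9578 that of Serpina1d was 0.0510.

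Serpina1c, the nearest relative of Serpina1a, gave 3412, 4063, 4135, 4079 and 4698 RPM in the untreated and 3378, 3175, 3345, 3201 and 3714 in the treated mice with Illumina and GSNAP. The groups overlapped, because treated mouse ILB_9583 was above untreated mouse UNT_9574. The log2 fold change was -0.28 ± 0.11 with an adjusted p of 0.0491, next to the threshold, and was above it without any 1 of 8 mice, all but UNT_9574 and ILB_9583 (up to 0.0896, without UNT_9584). With Illumina and STAR + Bowtie2 it was -0.28 ± 0.11 and called (adjusted p = 0.0441), but not with Illumina and STAR (-0.27 ± 0.11, adjusted p = 0.0591). With Ion Torrent it was not called, at -0.25 ± 0.13, -0.22 ± 0.14 and -0.23 ± 0.13 for the 3 aligners, and leaving out treated mouse ILB_9583 brought all 3 under the threshold (adjusted p = 0.0182, 0.0439 and 0.0240).

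Serpina1e was not called in any table, although its mean was also lower. With Illumina and GSNAP it gave 13091, 10126, 9988, 14705 and 8782 RPM in untreated mice UNT_9574, UNT_9575, UNT_9576, UNT_9580 and UNT_9584 and 11107, 7576, 9997, 7251 and 10996 in treated mice ILB_9577, ILB_9578, ILB_9579, ILB_9582 and ILB_9583. Mice UNT_9574 and UNT_9580 were high and ILB_9578 and ILB_9582 low, and 3 of 5 treated mice lay within the untreated range. The log2 fold change was -0.27 ± 0.17 with an adjusted p of 0.215, and over the 6 tables it was -0.29 to -0.27 with adjusted p values of 0.142 to 0.219. Without untreated mouse UNT_9580 it was -0.18 to -0.13 in the 6 tables, again not called, and with Ion Torrent and STAR it was -0.17 without ILB_9578 and -0.18 without ILB_9582. Its SE (0.16 to 0.17) was above those of the called paralogs (0.10 to 0.12). Whether its response differs from theirs is examined with the shares, within the limits given there.

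**Figure D1:**
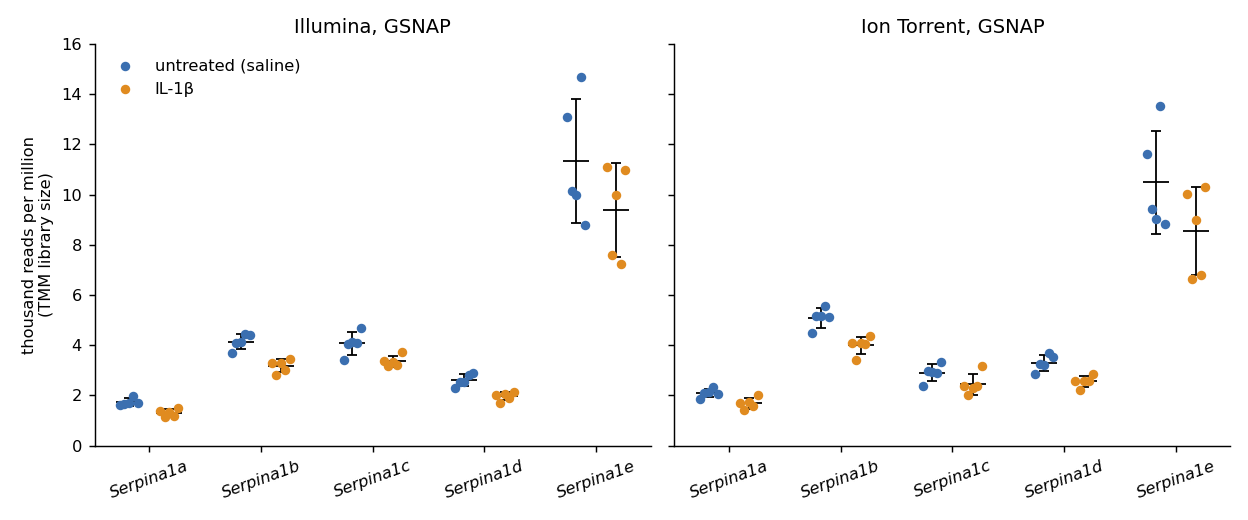
RPM of the TMM library size (in units of 1000) for each Serpina1 paralog in each mouse, with Illumina on the left and Ion Torrent on the right, both aligned with GSNAP. Points are mice, and bars are the mean ± SD of 5 mice. Serpina1e has the widest scatter in RPM (7251 to 14705 with Illumina). As a percent of the mean, the SD of treated Serpina1c with Ion Torrent (17.4%) is near that of Serpina1e (20.4%).

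**Figure D2:**
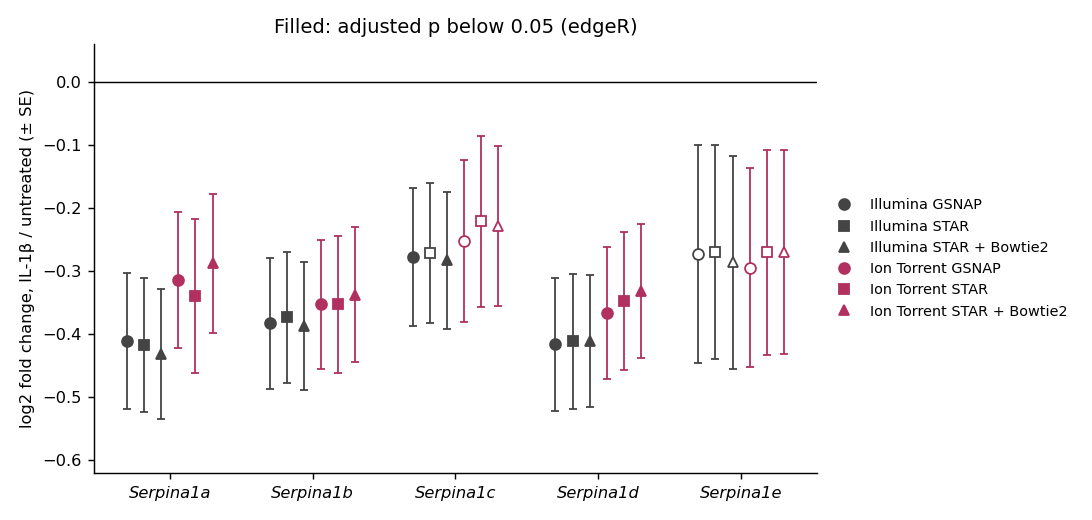
The log2 fold change (IL-1β over untreated, ± SE from edgeR) of each paralog in the 6 tables, with filled symbols where the adjusted p is below 0.05. All 30 values lie below 0, from -0.43 (Serpina1a, Illumina STAR + Bowtie2) to -0.22 (Serpina1c, Ion Torrent STAR), and those of Serpina1e have the longest error bars.

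The spread of Serpina1e recurred mouse by mouse on both platforms. Within a treatment, the SD of its log2 level was 0.301 with Illumina and GSNAP, larger than for 83.9% of the 143 genes with a mean of at least 10000 reads, whereas the SDs of Serpina1a to Serpina1d were 0.114 to 0.142. In the other 5 tables the SD of Serpina1e was 0.287 to 0.300, larger than for 72.2% to 82.5% of such genes. The highest SD of the other 4 paralogs was that of Serpina1c, 0.226 with Ion Torrent and STAR. The Ion Torrent libraries showed the same mice high and low: with GSNAP, Serpina1e was at 11630, 9426, 9013, 13525 and 8836 RPM in the untreated and 10034, 6628, 8976, 6807 and 10301 in the treated mice. The deviations of a mouse from its treatment mean correlated between the platforms at 0.982 (GSNAP), 0.996 (STAR) and 0.984 (STAR + Bowtie2) by Pearson's correlation over the 10 mice, a description with no test, since both libraries of a mouse share its RNA. For the other 4 paralogs these correlations were 0.828 to 0.955. Mouse UNT_9584, whose libraries stand apart over all genes, was the lowest untreated mouse for Serpina1e on both platforms with GSNAP.

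**Figure D3:**
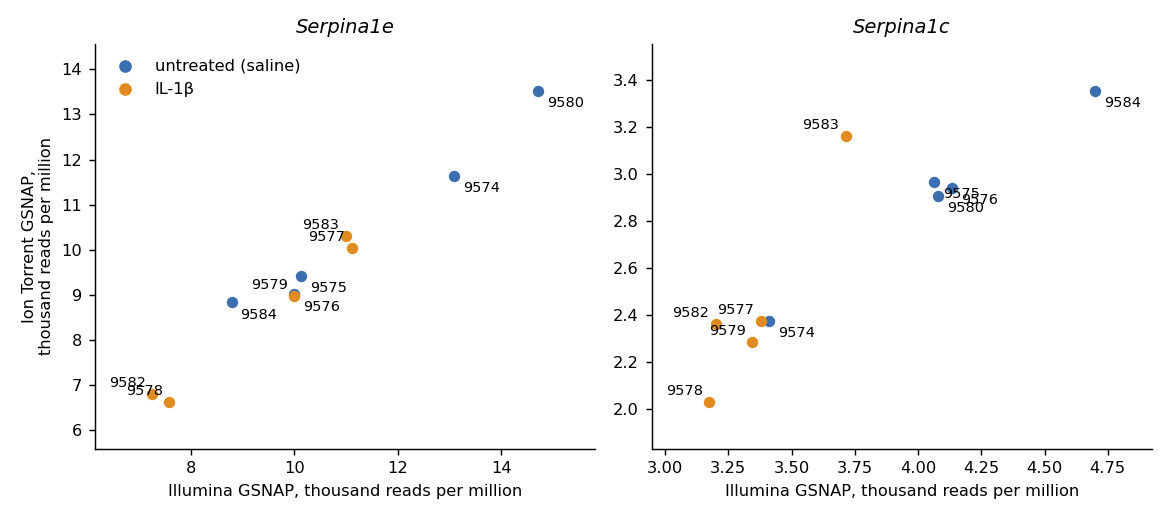
Each mouse's level on Illumina (horizontal) and Ion Torrent (vertical), in units of 1000 RPM of the TMM library size with GSNAP, for Serpina1e and Serpina1c. Mice UNT_9574 and UNT_9580 were the highest on both platforms for Serpina1e, whereas mouse UNT_9584 was the highest for Serpina1c.

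The paralogs did not vary together as one. Serpina1b and Serpina1d moved most alike from mouse to mouse, with correlations of their deviations from the treatment mean of 0.944 to 0.973 in the 6 tables. Serpina1c and Serpina1e, in contrast, had correlations of -0.24 to 0.19. Serpina1a, which shares the most sequence with Serpina1c, correlated with Serpina1e at 0.620 to 0.742 and with Serpina1c at 0.504 to 0.805. In mice UNT_9574 and UNT_9580 Serpina1e made up 54.3% and 52.4% of the family's reads with Illumina and GSNAP and Serpina1c 14.2% and 14.5%, while in mouse UNT_9584 the shares were 39.0% and 20.9%. These points share the libraries and their scaling.

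The next comparison asked whether IL-1β changed the make-up of the family. A share within a library does not depend on how the library was scaled. With Illumina and GSNAP the mean shares in untreated and treated mice were 47.0% ± 6.27 and 48.5% ± 3.49 (SD, n = 5 each) for Serpina1e, 17.2% ± 2.83 and 17.7% ± 1.57 for Serpina1c, 17.4% ± 1.82 and 16.7% ± 1.03 for Serpina1b, 11.0% ± 1.29 and 10.3% ± 0.760 for Serpina1d, and 7.29% ± 0.383 and 6.83% ± 0.261 for Serpina1a. Over the 30 tests (5 paralogs by 6 tables, exact two-sided permutation tests) no share passed, the smallest adjusted p being 0.794. The largest movement relative to its spread was that of Serpina1a with Illumina and STAR + Bowtie2, from 8.83% ± 0.472 to 8.23% ± 0.294, with an unadjusted exact p of 0.0476 that failed the correction. The smallest p that 5 against 5 mice allow is 0.00794. A change of 1 paralog in 1 table alone could therefore not pass the correction over 30 tests, whatever its size. Mean shares moved by -0.78 percentage points (Serpina1b) to 1.49 (Serpina1e), both with Illumina and GSNAP, where leaving out 1 mouse gave -1.32 to -0.249 and -0.508 to 3.31, and the SDs of Serpina1e were 3.42 to 6.32 points in the 6 tables. A shift within that spread was not detectable with these mice.

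The make-up of the family differed by aligner in nearly every library, although the sequenced reads were the same before each table was re-sampled. Between STAR and GSNAP on Illumina reads, the share of Serpina1a was 8.43% ± 0.504 against 7.06% ± 0.391 (SD, n = 10), higher with STAR in 10 of 10 libraries, and that of Serpina1e was 45.8% ± 4.89 against 47.8% ± 4.84, lower in all 10 (adjusted p = 0.00300 each, exact paired permutation test over 10 mice, 20 tests). On Ion Torrent reads, Serpina1b had 21.2% ± 1.58 with GSNAP and 18.1% ± 1.64 with STAR, and Serpina1c 12.5% ± 1.49 and 14.4% ± 1.97, again in 10 of 10 libraries (adjusted p = 0.00300 each). Of the 20 differences, 18 passed an adjusted p of 0.05, and the 2 that did not were those of Serpina1b between STAR + Bowtie2 and STAR.

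Adding Bowtie2 after STAR mattered little for Illumina and much for Ion Torrent. With Illumina the mean shares moved by -0.21 (Serpina1e) to 0.10 (Serpina1a) percentage points. With Ion Torrent the share of Serpina1a rose from 9.16% ± 0.462 to 12.3% ± 0.534 and that of Serpina1e fell from 44.9% ± 4.67 to 40.2% ± 4.16, in 10 of 10 libraries each (adjusted p = 0.00300, exact paired permutation test). In RPM, Serpina1a was 1.37 to 1.61 times (median 1.49) its STAR level after Bowtie2 was added, while Serpina1e was 0.969 to 1.01 times. Serpina1a was called lower with IL-1β both before and after.

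**Figure D4:**
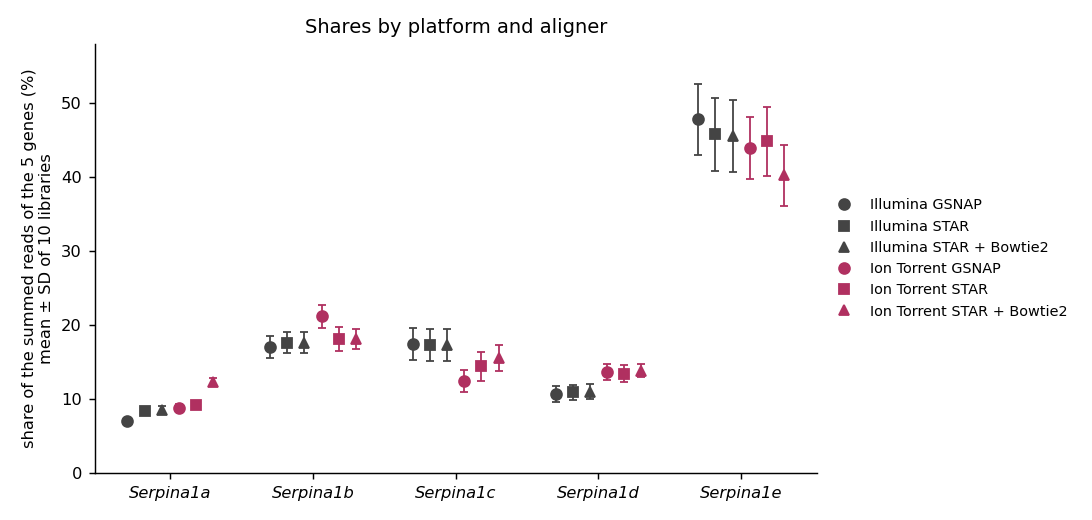
Share of each paralog in the summed reads of the 5 genes (percent, mean ± SD of the 10 libraries) in the 6 tables. Serpina1e holds 40.2% to 47.8%, and the Ion Torrent STAR + Bowtie2 share of Serpina1a (12.3%) stands above its other 5 values (7.06% to 9.16%).

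Libraries of the same RNA also differed between the platforms. With GSNAP, the share of Serpina1c was 12.5% ± 1.49 with Ion Torrent and 17.4% ± 2.17 with Illumina (SD, n = 10 mice), and that of Serpina1e 43.9% ± 4.20 and 47.8% ± 4.84, both lower with Ion Torrent in 10 of 10 mice. Serpina1b was higher by 4.11 points, Serpina1d by 3.01 and Serpina1a by 1.73, each in 10 of 10 mice (adjusted p = 0.00266 for all 5, exact paired permutation test, 15 tests). All 15 platform differences passed the test, and their signs were the same with the 3 aligners, but their sizes were not: for Serpina1c the difference was -4.96, -2.87 and -1.76 points in the order GSNAP, STAR and STAR + Bowtie2, and for Serpina1e -3.88, -0.89 and -5.34. The tables were re-sampled separately, which a share within a library does not feel.

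The response to IL-1β was then compared between the platforms. A platform-by-treatment term (the Ion Torrent effect minus the Illumina effect, edgeR with the mouse as a block) was called for 0 of the 5 paralogs with any aligner, and for 0.0642%, 0.00642% and 0.0770% of all genes with GSNAP, STAR and STAR + Bowtie2. At an unadjusted p below 0.05 it was found for 0, 0 and 1 of the 5 paralogs, against 7.80%, 7.00% and 7.77% of all genes, and DESeq2 also called 0 of the 5 with any aligner. The one was Serpina1a with STAR + Bowtie2, whose fall was smaller with Ion Torrent by 0.13 ± 0.06 on the log2 scale (95% interval 0.0090 to 0.26, unadjusted p = 0.0479, adjusted p = 0.638). For Serpina1e with GSNAP the term was -0.03 ± 0.06 (95% interval -0.15 to 0.08). Both intervals used the normal quantile, so they are somewhat narrower than the edgeR test of the term would give.

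Pseudogenes in the cluster took few reads beside the 5 paralogs summed. Over 10 libraries they had 4383 reads against 2489724 with Illumina and GSNAP. The highest totals were with Ion Torrent, 46564 against 3205282 (GSNAP) and 64925 against 4460073 (STAR + Bowtie2). The annotation places 8 pseudogenes beside or between the 5 genes. Of these, Gm8893, which lies between Serpina1d and Serpina1a and was singled out after its values were seen, had 469 to 615 reads in untreated and 237 to 446 in treated libraries with Illumina and GSNAP, and 4381 to 5735 and 3591 to 4495 with Ion Torrent and GSNAP. With Ion Torrent and STAR it had 330 to 501 and 133 to 338, and after Bowtie2 6570 to 7893 and 4994 to 6097. Its counts were highest in 2 Ion Torrent tables, where Serpina1a had means of 28082 (GSNAP) and 54757 (STAR + Bowtie2) reads per library. The part of Gm8893 in the shares of the paralogs was not tested. The antisense transcript B430119L08Rik, which overlaps Serpina1c on the plus strand, had 11 reads over the 10 Illumina libraries with GSNAP.

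Other serpins of clade A moved in both directions. Of 10 listed, 9 were tested, and 4 were called higher, 3 lower and 2 not called in each of the 6 tables, with a median log2 fold change of 0.46 to 0.62 against -0.01 to 0 over all genes tested. Called higher were 23.7%, 22.7% and 22.9% of all genes with Illumina (GSNAP, STAR and STAR + Bowtie2) and 22.5%, 20.3% and 22.8% with Ion Torrent. With Illumina and GSNAP, Serpina7, the thyroxine-binding globulin, rose by 2.28 ± 0.28 (adjusted p = 1.06e-05) and Serpina10, the inhibitor of coagulation factors Xa and XIa, by 1.97 ± 0.11 (adjusted p = 9.48e-09). Serpina6, the corticosteroid-binding globulin, fell by 0.74 ± 0.13 on the log2 scale (adjusted p = 0.000264), and Serpina9, known from germinal centre B cells, fell by 2.48 ± 0.44 (adjusted p = 0.000334) from a mean of 51.2 reads to 8. Serpina11, the annotated gene after Serpina1e on the chromosome and named here after its values were seen, rose by 0.58 ± 0.11 (adjusted p = 0.000366).

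Among 8 other liver-made protease inhibitors, 5 were called higher and 3 lower with Illumina and GSNAP, with a median log2 fold change of 0.36. Of all genes tested in the same libraries, 23.7% were called higher and 23.9% lower, with a median of 0. A2m, the broad inhibitor alpha-2-macroglobulin, went from a mean of 3.20 to 2350 reads and Spink3, a trypsin inhibitor, from 1 to 19.8 reads per library (adjusted p = 6.59e-11 and 1.88e-06). The untreated mean of A2m was 93.8 reads with Illumina and STAR + Bowtie2 and 31 with Ion Torrent and GSNAP, so its log2 fold change ran from 4.82 to 10.15 over the 6 tables. Serpind1, heparin cofactor II, fell by 1.25 ± 0.13 on the log2 scale (adjusted p = 3.22e-06). Serpinf1, pigment epithelium-derived factor, fell by 0.30 ± 0.11 (adjusted p = 0.0307). With Ion Torrent and GSNAP 4 were higher and 3 lower, and with Ion Torrent and STAR 5 and 1. The shares of all genes were 22.5% higher and 23.9% lower with GSNAP there, and 20.3% and 21.8% with STAR.

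The proteases that alpha-1-antitrypsin inhibits were barely measured. Of Elane, Ctsg and Prtn3 (neutrophil elastase, cathepsin G and proteinase 3), Prtn3 alone passed the filter on low counts, with means of 6.60 untreated and 4.60 treated reads with Illumina and GSNAP (log2 fold change -0.34 ± 0.65, adjusted p = 0.716), and it was not called in any table. Neutrophil markers nevertheless moved with the treatment. The summed level of 5 markers was 0.772 to 2.43 RPM in untreated and 33.9 to 73.7 in treated libraries with Illumina and GSNAP, carried by S100a8 and S100a9, which were called higher, whereas Ly6g, Mpo and Elane did not pass the filter. The summed level of the 5 hepatocyte markers was 93457 to 111457 and 61861 to 74831 RPM in the same libraries, with Alb (albumin) falling by 0.53 ± 0.13 on the log2 scale and Tat (tyrosine aminotransferase) rising by 1.51 ± 0.23. The part of these shifts in the lower Serpina1 levels was not tested.

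Regulators of the alpha-1-antitrypsin gene moved mostly upward. Of 13 listed factors and receptor chains, 11 were tested, and 7 were called higher, 2 lower and 2 not called in each GSNAP table. Their median log2 fold change was 0.88 with Illumina and 0.85 with Ion Torrent. Among all genes tested, 23.7% were called higher and 23.9% lower with Illumina, and 22.5% and 23.9% with Ion Torrent (median 0 in each). Cebpd, an acute phase C/EBP factor, rose by 2.11 ± 0.29 and Osmr, the oncostatin M receptor, by 1.98 ± 0.17 with Illumina and GSNAP (adjusted p = 3.39e-05 and 3.31e-07). Cebpa, the C/EBP factor of resting hepatocytes, fell by 0.87 ± 0.17 (adjusted p = 0.000835).

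Genes listed for folding, transport or degradation of glycoproteins in the endoplasmic reticulum, through which alpha-1-antitrypsin leaves the cell, mostly rose. Of 17, all tested, 13 were called higher, 1 lower and 3 not called with Illumina and GSNAP (median log2 fold change 0.72). With Ion Torrent and GSNAP the counts were 12, 1 and 4 (0.71). Of all genes tested, 23.7% were called higher and 23.9% lower with Illumina, and 22.5% and 23.9% with Ion Torrent (median 0 in each). Syvn1, the ubiquitin ligase of ER-associated degradation, rose by 3.08 ± 0.28 and Hspa5, the chaperone BiP, by 2.03 ± 0.26 (adjusted p = 6.22e-07 and 1.74e-05). Os9, a lectin of the same degradation route, rose by 0.30 ± 0.11 (adjusted p = 0.0366) but was not called with Ion Torrent and GSNAP (0.09 ± 0.13, adjusted p = 0.603). The member that fell was Lman1, the cargo receptor for secreted glycoproteins, by 0.34 ± 0.10 (adjusted p = 0.0149), and it was called lower in all 6 tables.

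By the deviation of each mouse from its treatment mean, the genes most like the summed paralogs were Mms19, Ahsg and Miip. They had the highest smaller value of 2 Pearson correlations, one per platform with GSNAP, over 10 mice and 8005 genes with a mean of at least 100 reads. Mms19, a factor of iron-sulfur protein assembly, had r = 0.926 with Illumina and 0.899 with Ion Torrent. Ahsg, the liver plasma protein fetuin-A, had 0.884 and 0.911. Miip had 0.880 and 0.933. By Spearman's correlation Mms19 and Miip stayed among the first 3, with Dazap1, while Ahsg had 0.903 and 0.673 and was not among the first 5. In rankings for single paralogs, added after the data were seen, Miip and Mms19 were among the first 3 for Serpina1e by both measures. Neither was among the first 5 for Serpina1a, Serpina1b, Serpina1c or Serpina1d, so the likeness was not one of each paralog. The points share the RNA and the scaling of the libraries.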

How the data were processed

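The deposited tables hold whole-number read counts per Ensembl gene (mm9). The authors aligned reads with GSNAP, STAR (2.5.1b) or STAR + Bowtie2 (2.2.9, versions per the submitters' processing notes), and their PORT pipeline removed ribosomal and mitochondrial reads and re-sampled libraries within each table. The strand setting of the counting is not given in the sources used here. From these counts, treatment was tested within a table, over its 10 libraries, by the quasi-likelihood F-test of edgeR 4.0.16 (R 4.3.3) after TMM, on 15578 genes with at least 5 reads in 5 libraries of any table, with Benjamini-Hochberg adjustment and a threshold of 0.05. Levels are reads scaled to a library total of 1000000 (RPM). Shares are percents of the summed reads of the 5 genes, compared with exact permutation tests (scipy 1.17.1). The platform-by-treatment term carried the mouse as a block, since both platforms read the same RNA. Own-mouse correlations of deviations were 0.549 to 0.705 with GSNAP for 9 mice and 0.216 for mouse UNT_9584. No 2 libraries agreed within sampling noise. The statistics were tested on simulated data.

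Alternatives were library totals without TMM, DESeq2 1.42.0, limma-voom (limma 3.58.1), a rank-sum test on unscaled counts, other filters, no block, shares per exonic length or as log ratios, and leaving out each mouse. The members and lists were chosen with earlier results of these data known. From a list of more than 5 detected genes, the 2 highest and 2 lowest called changes with Illumina and GSNAP are named, and exceptions are stated. One gene that this rule names is not reported here. Coding sequences came from mm9 with its annotation, and promoters from RefSeq (GRCm38.p6), in which all 5 genes matched by symbol. The totals, 10568530 to 16439683 reads, leave counting error well below the spread between mice.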

Additional observations from a re-analysis of the deposited data

Results flagged for a closer look

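Untreated mouse UNT_9580 was flagged against the other 4 untreated mice in 6 of 132 groups examined by the gap to its nearest neighbour (Dixon's ratio). Chance alone marks about 1 group in 20, and these 6 did not exceed that share. The 6 groups share the mouse and mostly the reads, so they are not independent. For Serpina1a with Illumina and GSNAP this mouse had 1997 RPM of the TMM library size, against 1717 for the next. For the sum of the 5 paralogs it had 31105 with Illumina and STAR, 29517 with Illumina and STAR + Bowtie2, 28019 with Ion Torrent and GSNAP, 32619 with Ion Torrent and STAR, and 35231 with Ion Torrent and STAR + Bowtie2, where the next untreated mice had 26652, 24965, 23197, 26971 and 29626. The cause was not tested. Without this mouse, Serpina1a was no longer called in the 3 Ion Torrent tables, nor Serpina1b and Serpina1d with Ion Torrent and STAR.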

How the results depend on the processing

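Of 480 alternative fits of the IL-1β effect on a paralog, 424 kept direction and side of the threshold, 13 gained a call, 43 lost one and 0 turned direction. Without TMM the median of genes with at least 10 reads shifted to between -0.13 and -0.09, and the called paralog changes grew by about that shift: Serpina1c became called with Illumina STAR (-0.39) and with Ion Torrent GSNAP (-0.36), STAR (-0.34) and STAR + Bowtie2 (-0.33), and Serpina1e with Ion Torrent GSNAP (-0.40). Serpina1c with Illumina STAR was also called with DESeq2 (-0.27), limma-voom (-0.26), the filter in the same table (-0.27) and the rank-sum test (-0.44). The rank-sum test used counts without TMM or scaling to library totals, so it differs from the main fit in scaling too. Calls were lost with no filter on low counts for Serpina1c with Illumina GSNAP (-0.26) and STAR + Bowtie2 (-0.27, also -0.27 with the filter in the same table) and for Serpina1a with Ion Torrent GSNAP (-0.31), STAR (-0.31) and STAR + Bowtie2 (-0.30).

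Leaving out 1 mouse at a time gave, for Serpina1c, -0.35 to -0.22 (Illumina GSNAP), -0.34 to -0.21 (Illumina STAR), -0.34 to -0.23 (Illumina STAR + Bowtie2), -0.37 to -0.19 (Ion Torrent GSNAP), -0.33 to -0.13 (Ion Torrent STAR) and -0.34 to -0.17 (Ion Torrent STAR + Bowtie2). In Ion Torrent tables it gave -0.39 to -0.26 (GSNAP), -0.41 to -0.25 (STAR) and -0.36 to -0.23 (STAR + Bowtie2) for Serpina1a, and with STAR -0.40 to -0.28 for Serpina1b and -0.39 to -0.28 for Serpina1d. The mice that decided a call are named beside each result, except for Serpina1c with Illumina STAR + Bowtie2 (each mouse but UNT_9574 and ILB_9583) and with Illumina STAR (UNT_9574). The cause was not tested.

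The platform-by-treatment term without the replicate block kept its sign and stayed uncalled for all 5 paralogs with each aligner (Serpina1a with GSNAP 0.0930, against 0.0891 with the block). Leaving out 1 mouse turned its sign for Serpina1c with GSNAP (-0.0028 to 0.068) and STAR (-0.019 to 0.10) and for Serpina1e with GSNAP (-0.035 to 0.035) and STAR + Bowtie2 (-0.026 to 0.051), none called.

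Uncalled share differences also turned sign: Serpina1a with Ion Torrent GSNAP as a log2 ratio (4.67e-05), and, leaving out 1 mouse, Serpina1a with Ion Torrent GSNAP (-0.207 to 0.173 points) and STAR + Bowtie2 (-0.191 to 0.216). For Serpina1c the ranges were -0.302 to 1.38, -0.234 to 1.46 and -0.232 to 1.47 (Illumina GSNAP, STAR, STAR + Bowtie2) and -0.0674 to 1.03, -0.124 to 1.42 and -0.105 to 1.26 (Ion Torrent), and for Serpina1e -0.508 to 3.31, -0.549 to 3.31 and -0.622 to 3.22 and -0.773 to 2.12, -0.829 to 2.72 and -0.867 to 2.11. Serpina1b between STAR + Bowtie2 and STAR with Ion Torrent gave -0.0688 to 0.0179. All 165 platform share alternatives and 219 of 220 aligner ones kept their result. Of all called genes, 50.2% to 51.7% were lower, 60.4% to 62.3% without TMM and 62.9% to 67.4% with the rank-sum test on unscaled counts.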

Other observations

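Markers of other liver cells besides neutrophils were also summed. The summed level of 5 Kupffer cell or macrophage markers was 104 to 202 RPM in untreated and 52.0 to 114 in treated libraries with Illumina and GSNAP. That of 3 lymphocyte markers was 0.601 to 1.56 and 0.355 to 0.796. That of 2 cholangiocyte markers was 1.54 to 3.35 and 1.96 to 5.13. The ranges of all 3 lists overlapped between the treatments. With Illumina and GSNAP, 3 of 5 Kupffer cell or macrophage markers and 1 of 2 lymphocyte markers tested were called lower. Of the 2 cholangiocyte markers 1 was called higher. With Ion Torrent and GSNAP the counts were 2, 0 and 1. Among all genes, 23.9% were called lower on each platform with GSNAP, and 23.7% (Illumina) and 22.5% (Ion Torrent) higher. Their part in the Serpina1 levels was not tested.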
